A study of Mus musculus with 8 samples.

Results

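Interferon-responsive infiltrating macrophages were the droplets that held blood-derived macrophage transcripts together with at least 3 of 5 interferon-induced transcripts (Ifit2, Ifit3, Rsad2, Usp18 and Oasl2). They numbered 193 of 46216 droplets kept from the injured cortex, and 193 of the 1843 infiltrating macrophages that carried fewer than 3 of 5 cell cycle transcripts (Mki67, Top2a, Cenpf, Cdk1 and Ccnb2). The choice used measured values throughout. A droplet was kept with at least 2000 UMIs (unique molecular identifiers, 1 per captured transcript molecule) and under 20% of them from 13 mitochondrial genes. On the scale of UMIs per 10000 (cp10k), an infiltrating macrophage had a sum of at least 10 for Ms4a7, Arg1, Gpnmb and Fabp5 and at least 3 for Tyrobp. Its sums stayed under 1 for the microglial genes P2ry12, Tmem119, Sall1 and Siglech, under 0.5 for the border macrophage genes Cd163, Lyve1 and Cbr2, under 3 for the monocyte genes Ly6c2, Chil3 and Plac8, and under 10 for Col1a1 and Col1a2. The control mice gave 19, 18, 25 and 32 such droplets and the ancrod mice 18, 37, 25 and 19, so no mouse lacked them.

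The series measured RNA of single cells from the right sensorimotor cortex of adult female mice of genotype Bl/J6, as the labels give it, after photothrombosis (PT), in which light and the dye Rose Bengal clot the vessels of a cortical disc. All 8 mice received PT and a subcutaneous osmotic minipump from 2 days before injury, and tissue was taken 6 days after injury. The 4 control mice received saline and the 4 ancrod mice 2.4 U per day of ancrod, a snake venom protease that depletes blood fibrinogen, so the groups differed by the agent in the pump alone. Each library was 1 mouse, cells were not enriched, and 3 mice of each group formed a first batch and 1 mouse of each a second. No uninjured cortex and no mouse that is deficient in an interferon receptor enters these comparisons.

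Type I interferons bind the receptor chains Ifnar1 and Ifnar2, whose kinases Jak1 and Tyk2 phosphorylate transcription factors such as Stat2. With Irf9 these form a complex that binds the interferon-stimulated response element in promoters and turns on many interferon-stimulated genes, among them antiviral effectors, sensors of foreign nucleic acid and the transcription factor Irf7, which raises the response further. In injured brain a share of microglia and macrophages carries this program, which can follow from uptake of nucleic acid of dead cells as well as from infection.

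The macrophage label was checked against genes that the rule did not use. Of the 193 droplets, 95.9% held a UMI of Csf1r, the growth factor receptor of macrophages, 94.8% of Adgre1, a surface receptor of mature macrophages, and 96.4% of Mertk, an efferocytosis receptor. Endothelial droplets, which were shallower, had these genes in 7.13%, 2.23% and 59.9%, and interferon-responsive microglia in 99.4%, 90.8% and 96.2%, so none separates infiltrating from resident macrophages. Endothelial droplets were picked by at least 10 cp10k of Cldn5 and Flt1 and no UMI of Tyrobp, which the macrophage rule required. Low macrophage transcripts in them thus came partly with the choice, and their shares are a description. Among genes of the rule, whose levels it set, Ms4a7, a gene of infiltrating and border macrophages, was found in 94.8% of members, against 11.9% of interferon-responsive microglia and 1.42% of endothelial droplets, at median depths of 29023, 17284.5 and 10314 UMIs. Microglia were picked by at least 3 cp10k of the microglial genes and under 1 of Ms4a7 and Arg1, so the 11.9% also followed from the choice. Of the 6 border macrophage genes, Cd163 and Lyve1, which the rule limited, were at 0, while Cbr2, also limited, had a UMI in 13.99% of members, Mrc1 in 24.4%, Folr2 in 38.9% and F13a1 in 75.1%. Arg1, an arginine-consuming enzyme of wound macrophages, had a UMI in 13.5% and the monocyte chemokine receptor Ccr2 in 11.9%. P2ry12 and Tmem119 had a UMI in 49.2% and 49.7% at the low levels that the rule allowed. High Ms4a7 and low microglial genes followed from the rule, so they are no evidence of origin from blood, and lineage was not traced.

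Transcripts of other cells were counted in the same droplets. Endothelial markers summed to at least 5 cp10k in 14 of 193 members (7.25%) against 15 of 1650 other infiltrating macrophages (0.909%), and 6 of the 14 came from control 3, 3 from ancrod 3, 2 each from control 1 and ancrod 2, and 1 from control 2. All 5 endothelial markers were measured, none was at 0, and their summed level over members ranged from 0.158 to 22.1 cp10k in control and from 0.149 to 8.52 cp10k in ancrod mice. Astrocyte markers reached that level in 15 members (7.77%) against 190 other macrophages (11.5%), and neutrophil markers in 8 (4.15%) against 70 (4.24%). No member reached it for T cell, natural killer cell, B cell or fibroblast markers. By a criterion that grows with depth, at least 3 UMIs over at least 2 marker genes of any 1 other class, 96 of 193 members (49.7%) and 647 of 1650 other macrophages (39.2%) held other markers, and all of these are left out wherever droplets with other markers are said to be removed. No doublet caller was run. A strict class of 154 members and 938 other macrophages had at least 7 of 8 macrophage markers found. That number also grows with depth, and 94.3% of members reached it against 62.2% of other macrophages. The strict class had under 5 cp10k for endothelial, neutrophil, lymphocyte, fibroblast, mural, astrocyte, oligodendrocyte and neuron markers. It is given beside results that rest on these droplets. Strict microglia had the same limits except that for neutrophil markers, and no number of macrophage markers was required of them. Neither criterion counted dendritic cell, monocyte, border macrophage or microglial markers. The dendritic cell markers Ccr7 and Flt3 had a UMI in 17 and 28 of 1650 other macrophages and in 0 and 2 of 193 members. Of the barcodes, 274 were kept in more than 1 library, 2 of them carried by a member, and none was a member in both. Total UMIs per library ran from 97861434 to 122758649 in control and from 126682918 to 142139441 in ancrod mice, without overlap, so library depth and treatment cannot be told apart. The share of mitochondrial UMIs had a median of 3.13% in members and 3.03% in the other infiltrating macrophages.

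The 5 genes that chose the members are given as levels only. Values per mouse are CPM, counts per 1000000 of the summed UMIs of all members or all other macrophages of a mouse, scaled by trimmed mean of M values. Ifit3 (ENSMUSG00000074896, chromosome 19, 34560899-34566443, plus strand, GRCm39), a protein that binds other Ifit proteins on viral RNA, stood at 138, 41.2, 112 and 188 CPM in members of the control mice and at 157, 180, 207 and 174 CPM in members of the ancrod mice, against 2.15 to 10.6 CPM in other macrophages. Rsad2 (ENSMUSG00000020641, chromosome 12, 26492745-26506451, minus strand), which encodes viperin, an enzyme that makes a chain-terminating nucleotide, stood at 131, 95.6, 111 and 228 CPM in control and at 61.9, 246, 325 and 266 CPM in ancrod mice, against 7.49 to 28.4 CPM. Control 2 was the lowest control mouse for both genes. Ifit2 (chromosome 19, 34527932-34554524, plus strand) had 125, 30.6, 105 and 133 CPM in control and 61.9, 140, 198 and 207 CPM in ancrod mice, against 0.880 to 4.16 CPM. Usp18, the protease that removes Isg15 from proteins and dampens the receptor, averaged 46.7 CPM in members and 3.75 in the others, and Oasl2, an oligoadenylate synthetase-like antiviral protein, 112 and 12.8 CPM. Members with a UMI of the gene made up 67.9% for Ifit2, 78.2% for Ifit3, 68.9% for Rsad2, 64.8% for Usp18 and 92.2% for Oasl2, against 4.48% to 17.5% of the other macrophages and 24.4% to 59.3% of endothelial droplets.

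At the threshold, 102 droplets held exactly 3 of the 5 transcripts and 156 exactly 2, with median depths of 31030.5 and 31384 UMIs. A further 43 held 4 and 48 held all 5, at medians of 27032 and 26884 UMIs, while 413 held 1 and 1081 held 0, at medians of 29492 and 11720. Most droplets with none of the 5 were thus shallower, and a shallow droplet can miss a transcript that its cell held. Among 106 infiltrating macrophages left out as dividing, 12 held at least 3 of the 5.

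The first comparison the design implies is whether depletion of fibrinogen moved the size of this population. Interferon-responsive droplets made up 13.8%, 10.8%, 7.96% and 23.02% of infiltrating macrophages in the control mice and 7.00%, 13.5%, 7.49% and 8.60% in the ancrod mice. The groups overlapped, and control 4, of the second batch, was the highest of all 8 (exact 95% interval of its share 16.3% to 30.9%, counting error only). The means were 13.9% ± 6.53 in control and 9.15% ± 2.98 in ancrod mice (SD, n = 4 each), a difference of -4.75 percentage points that lay within the spread between mice (p = 0.229 in a two-sided exact permutation test whose smallest possible p is 0.0286, or 0.457 after adjustment over 2 comparisons). Within the first batch the difference was -1.53 points (3 mice each, exact permutation p = 0.5), and without control 4 it was -1.71 points. With each droplet thinned to 5000 UMIs it was -1.14 points (4.11% against 2.97%, exact permutation p = 0.457, n = 4 each), and within 3 median absolute deviations of its library's depth and gene number -6.46 points (exact permutation p = 0.0571, n = 4 each). The strict class, which left out a larger part of the other macrophages than of the members, gave -7.52 points (19.6% against 12.1%, exact permutation p = 0.314, n = 4 each). Of all kept droplets, the members were 0.407% ± 0.118 in control and 0.427% ± 0.139 in ancrod mice (exact permutation p = 0.743, adjusted p = 0.743, n = 4 each). The infiltrating macrophages that the first share is taken of numbered 138, 166, 314 and 139 in control and 257, 274, 334 and 221 in ancrod mice. A lower share can thus come from fewer members or from more other macrophages recovered, which was not tested.

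**Figure D1:**
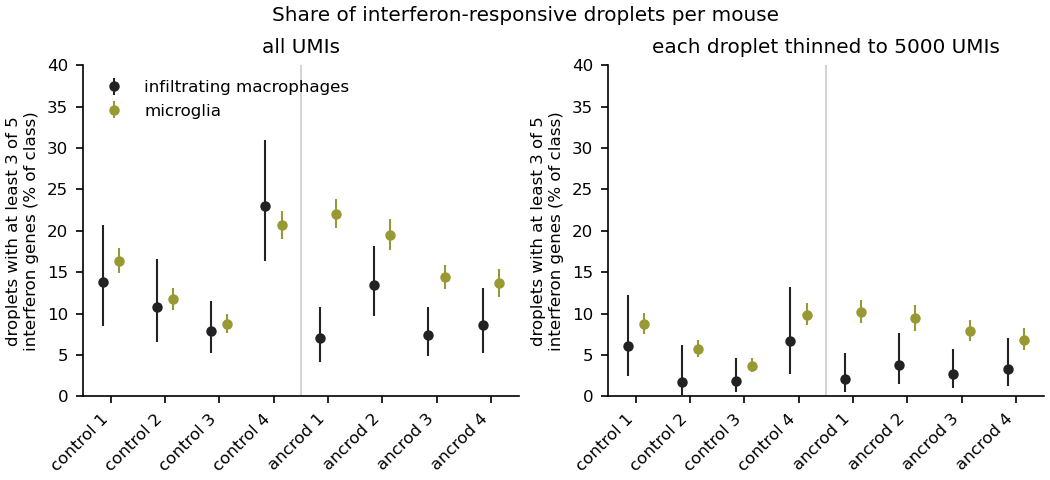
Share of droplets with at least 3 of the 5 interferon genes (percent of the class) in each of the 8 mice, for infiltrating macrophages (black) and microglia (olive), with all UMIs on the left and after thinning to 5000 UMIs on the right. Points are mice and bars exact 95% binomial intervals; with all UMIs the macrophage shares of control and ancrod mice overlap, and after thinning the microglial point is the higher in each mouse.

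The same 5 genes picked interferon-responsive cells among microglia, the resident macrophages of the brain. This permits a comparison of classes set by marker limits in the same mice. Droplets with little of the microglial genes were left out of the microglial class whatever their origin, and lineage was not traced. The paper's excised tissue held the injury site and surrounding spared tissue. Whether the classes came from different places in it was not tested. Because macrophage droplets were deeper, every droplet was thinned to 5000 UMIs and shallower ones were left out. After thinning, infiltrating macrophages held 3.54% ± 1.91 interferon-responsive droplets and microglia 7.80% ± 2.26 (SD, n = 8 mice), and the microglial share was higher in 8 of 8 mice (difference -4.26 points, exact sign-flip permutation test, p = 0.0078, the smallest that 8 mice can give). The thinned shares of macrophages ran from 1.75% in control 2 to 6.67% in control 4, on 105 to 225 droplets a mouse, and those of microglia from 3.68% in control 3 to 10.2% in ancrod 1. Without thinning the means were 11.5% and 15.9% (exact sign-flip permutation p = 0.0391, n = 8), and control 4 alone had the higher share in macrophages. Thinned strict droplets gave -4.31 points. Without droplets that hold markers of other cells the difference was -3.73 points (exact sign-flip permutation p = 0.0391, n = 8), with macrophages higher in 1 mouse.

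Among genes outside the rule, interferon genes were higher in members than in the other 1650 infiltrating macrophages. Over 8 mice, with mouse as a block, 276 of 8965 genes tested were higher (3.08%) and 225 lower (2.51%) at an edgeR adjusted p under 0.05, 5.59% in all, and the median log2 difference over all genes was 0.01. In the strict class 239 of 8247 were higher (2.9%) and 79 lower (0.958%), 318 in all (3.86%), and 228 genes were called in both. Members were picked by interferon genes in these same droplets, so a gene that varies with those 5 had to differ. The counts below are therefore a description of what came along with the rule and no independent evidence for a response, and no p is given for a single gene. A higher summed level can come from more droplets with the transcript or from more transcript per droplet.

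**Figure D2:**
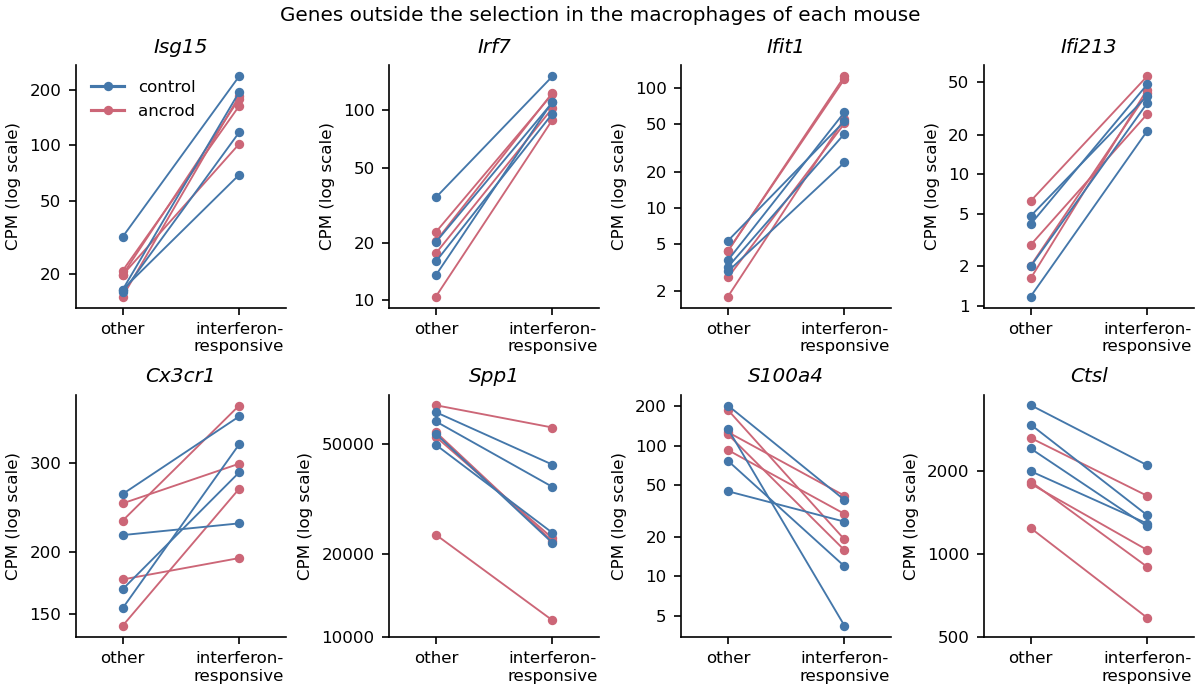
Level (CPM, log axis) of 8 genes outside the rule in other infiltrating macrophages and in interferon-responsive ones, with a line for each of 4 control (blue) and 4 ancrod mice (red). Isg15, Irf7, Ifit1, Ifi213 and Cx3cr1 are higher and Spp1, S100a4 and Ctsl lower in the interferon-responsive droplets of each of the 8 mice.

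Receptors and kinases of the interferon pathway gave a single call. Of 9 listed and 8 tested, 1 was higher, Ifnar1, at 67.8 against 53.3 CPM, and it was not called after leaving out 7 of the 8 mice in turn. The list's median log2 difference was 0.04, beside 0.01 over all genes. Transcription factors divided. Of 9 tested, 4 were higher and none lower, with a median of 0.26. Irf7, the factor that amplifies interferon production (ENSMUSG00000025498, chromosome 7, 140842619-140846398, minus strand, GRCm39), had 96.1, 110, 111 and 151 CPM in members of the control mice and 124, 122, 89.3 and 103 CPM in members of the ancrod mice, against 10.5 to 34.8 CPM in the other macrophages. The 2 classes did not overlap in any pair of mice, and the mean log2 difference was 2.59 (SE 0.12, n = 8, higher in 8 of 8 mice). Stat2 averaged 49.7 against 14.02 CPM, and Irf9, its partner in the complex, 41.5 against 26.5 CPM, higher in 7 of 8 mice.

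Sensors of nucleic acid were next. Of 16 listed, 13 were tested, 8 were higher and none lower, with a median log2 difference of 1.14. Rigi, which recognises short double-stranded RNA with a triphosphate end, averaged 52.0 against 11.5 CPM (2.15, SE 0.20), Ifih1, the sensor of long double-stranded RNA, 64.6 against 18.4 CPM, and Zbp1, the sensor of left-handed nucleic acid that can start necroptosis, 71.8 against 21.97 CPM. Ifi204, a DNA-binding member of the Ifi200 family, stood at 225 against 62.7 CPM.

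Antiviral effectors were higher nearly throughout. Of 36 listed, 33 were tested, 31 were higher and none lower, with a median log2 difference of 1.79, and 27 of the 29 tested in the strict class were called. Ifit1, which binds RNA with an incompletely methylated cap, had 41.5, 23.9, 62.9 and 52.8 CPM in control and 55.5, 119, 126 and 50.6 CPM in ancrod members, against 1.81 to 5.29 CPM in the others, a log2 difference of 4.20 (SE 0.22). That was the highest of the 8965. Ifi44 averaged 22.7 against 1.47 CPM and was below the filter in the strict class, Oasl1 40.2 against 4.30 CPM, and Ifit3b 36.1 against 2.62 CPM, though Ifit3 and Ifit3b are near-identical copies between which reads can be lost or split. All 4 genes of the Isg15 pathway were higher, with a median of 1.54, although the call of Uba7, its activating enzyme, was lost in 6 of the 8 fits that left out 1 mouse. Isg15, the ubiquitin-like protein that is conjugated to other proteins (ENSMUSG00000035692, chromosome 4, 156283883-156285303, minus strand), had 194, 69.1, 117 and 237 CPM in control and 102, 163, 179 and 185 CPM in ancrod members, against 15.1 to 31.8 CPM in the others (2.95, SE 0.16). Its ligase Herc6 stood at 62.0 against 13.98 CPM and its conjugating enzyme Ube2l6 at 30.04 against 15.3 CPM. Of 6 listed negative regulators outside the rule, 5 were tested and none was called (median -0.08).

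Guanylate-binding proteins and immunity-related GTPases, which attack the vacuoles of microbes and respond to interferon gamma as well as to type I interferon, were higher in 8 of 8 tested of 14 listed (median 1.89), although the call of Gbp5 was lost in 7 of the 8 fits that left out 1 mouse. Gbp7 averaged 29.6 against 6.06 CPM, Ifi47 34.7 against 7.74 CPM and Gbp2 26.5 against 6.93 CPM. Antigen presentation genes gave few calls. Of 13 class I genes tested, 4 were higher and none lower (median 0.36). Among them were the peptide transporter Tap1 at 55.8 against 31.5 CPM and the class I transactivator Nlrc5 at 34.1 against 20.1 CPM. Of 6 class II genes tested, 2 were lower and none higher (median -1.06), H2-Eb1 at 108 against 266 CPM and H2-Aa at 148 against 316 CPM. Neither class II call held in every fit that left out 1 mouse (H2-Eb1 was lost without control 1 or ancrod 2, H2-Aa without any of 6 mice), and neither was called in the strict class. Droplets were not left out for dendritic cell markers, and their part in the class II levels was not tested.

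In several gene families that lie in clusters, chosen after their values were seen, each tested member was higher. In the Ifi200 cluster (chromosome 1, 173296051-173859456, GRCm39), 8 of 8 tested of 11 genes in the table were higher, with a median log2 difference of 2.04. Its Ifi213 had 39.3, 21.3, 34.6 and 48.0 CPM in control and 28.6, 55.5, 44.0 and 41.1 CPM in ancrod members, against 1.17 to 6.24 CPM in the others (3.74). So were the 4 tested of 12 Oas genes, the 4 tested of 9 Slfn genes and the 3 tested of 6 Trim30 and Trim34 genes (chromosome 7, 103893663-104157107). These families hold copies so alike that the assignment of reads to single members is uncertain. Outside every list, the other genes with the largest rises in all 8 mice were Ifi206 (3.47), Pard3 (2.71), Ifi211 (2.33), Ms4a4c (2.18), Ifi209 (2.13), Helz2 (2.09), Gvin2 (2.07), Samd9l (2.05) and Ifi203 (1.95), as log2 differences.

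Promoters of 5 such genes are printed to show the letters that the interferon-activated complex reads, GAAA, any 2 bases and GAAA on either strand, in capitals. Each is the 250 bases before the RefSeq start on GRCm38.p6, 5′ to 3′ on the gene's strand, at chr19:34583279-34583528 (plus) for Ifit3, chr12:26456453-26456702 (minus) for Rsad2, chr4:156200819-156201068 (minus) for Isg15, chr19:34640639-34640888 (plus) for Ifit1 and chr1:173599273-173599522 (minus) for Ifi213.
Ifit3: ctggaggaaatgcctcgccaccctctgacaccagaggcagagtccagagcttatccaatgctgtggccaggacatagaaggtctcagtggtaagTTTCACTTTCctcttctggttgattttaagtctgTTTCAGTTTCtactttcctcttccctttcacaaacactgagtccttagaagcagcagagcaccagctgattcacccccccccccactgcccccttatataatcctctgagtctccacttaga
Rsad2: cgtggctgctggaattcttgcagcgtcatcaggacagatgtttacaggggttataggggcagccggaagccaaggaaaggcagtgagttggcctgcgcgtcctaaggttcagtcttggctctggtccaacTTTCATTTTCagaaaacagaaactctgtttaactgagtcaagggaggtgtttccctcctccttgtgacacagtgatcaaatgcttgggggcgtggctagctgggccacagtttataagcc
Isg15: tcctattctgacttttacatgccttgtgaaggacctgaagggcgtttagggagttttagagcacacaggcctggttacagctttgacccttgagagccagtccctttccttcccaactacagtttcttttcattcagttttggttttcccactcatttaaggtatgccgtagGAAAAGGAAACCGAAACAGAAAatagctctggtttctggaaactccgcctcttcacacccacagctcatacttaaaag
Ifit1: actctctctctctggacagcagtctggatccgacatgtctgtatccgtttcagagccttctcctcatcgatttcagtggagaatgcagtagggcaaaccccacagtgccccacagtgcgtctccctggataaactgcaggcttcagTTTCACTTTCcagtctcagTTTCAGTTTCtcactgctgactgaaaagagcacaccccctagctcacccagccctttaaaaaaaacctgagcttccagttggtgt
Ifi213: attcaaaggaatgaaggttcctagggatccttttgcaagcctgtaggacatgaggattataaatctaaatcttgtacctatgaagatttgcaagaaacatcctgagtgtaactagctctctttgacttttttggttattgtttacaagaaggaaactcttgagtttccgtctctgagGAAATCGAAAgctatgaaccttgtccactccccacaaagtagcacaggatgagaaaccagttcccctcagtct
Ifit3 held 2 matches, ending 146 and 112 bases before its start, and Rsad2 held 1, at 110 bases. In Isg15 3 matches overlapped, at 68, 62 and 56 bases, Ifit1 held 2, at 94 and 75 bases, and Ifi213 held 1, at 63 bases. The windows of Ifit2 and Oasl2 held none, which says only that these letters are not in them. Across the genes called higher in members and present in the table, 40 of 223 (17.9%) held a match, against 7 of 191 (3.66%) called lower, 237 of 7258 tested (3.27%) and 936 of all 27025 (3.46%). Of the effectors 11 of 28 held one and of the guanylate-binding and GTPase list 9 of 10. A match is a description of the letters and was not tested as a site.

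Chemokines did not move as a block. Of 10 listed and 9 tested, 2 were higher and 1 lower, with a median of 0.04. Cxcl10, the ligand of Cxcr3 that attracts T cells, had 125, 82.4, 13.6 and 247 CPM in control and 179, 410, 47.9 and 22.1 CPM in ancrod members, against 5.22 to 49.3 CPM in the others. The range within members was wide, and control 3 did not exceed its other macrophages. Most of it sat in few droplets. A Cxcl10 UMI was found in 35 of 193 members (18.1%), and 10 droplets held 93.7% of the 1010 UMIs, with 353 in the highest. For Rsad2 the top 10 droplets held 59.9% of 1225 UMIs and for Isg15 43.7% of 1030. Interferon-responsive microglia had a Cxcl10 UMI in 48.5%, endothelial droplets in 8.45%, and barcodes with at most 100 UMIs, taken as free RNA, held Cxcl10 at 237 CPM, above the 160 CPM of the members' summed UMIs. Without droplets that hold markers of other cells the gene was no longer called (log2 difference 2.46), while in the strict class it was (3.33). Ccl12, a monocyte attractant, was higher in 7 of 8 mice (75.5 against 20.7 CPM), and Ccl2, the ligand of Ccr2, lower in 7 of 8 (96.7 against 172 CPM, log2 difference -0.79).

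Chemokine receptors gave 2 of 6 higher. Cx3cr1, the fractalkine receptor, had 371, 327, 228 and 287 CPM in control and 267, 390, 194 and 299 CPM in ancrod members, against 260, 154, 216 and 168 CPM and 142.4, 230, 176 and 249 CPM in the others, so the classes overlapped across mice while each mouse was higher in its members (0.57, SE 0.11). With at least 4 of the 5 genes required, Cx3cr1 (0.28) and Ccl2 (-0.50) were no longer called.

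Some genes of phagocytosis and lipid handling were lower. Of 16 tested, 5 were lower and none higher, with a median of -0.27, and 6 were lower in the strict class. Spp1, which encodes osteopontin, a secreted matrix protein of wound macrophages (ENSMUSG00000029304, chromosome 5, 104582165-104589235, plus strand, GRCm39), had 23811, 34943, 21884 and 42078 CPM in control and 22776, 11470, 57360 and 22171 CPM in ancrod members. The others of the same mice had 49621, 60336, 54368 and 65183 CPM and 53065, 23430, 69081 and 55171 CPM, and members were lower in each of the 8 mice (-0.95, SE 0.10). Ctsl, the lysosomal protease cathepsin L (ENSMUSG00000021477, chromosome 13, 64507151-64518704, minus strand), averaged 1269 ± 459 against 2285 ± 713 CPM (SD, n = 8), and Plin2, the coat protein of lipid droplets, 1469 against 1948 CPM. These differences kept their size in the strict class (Spp1 -0.95, Ctsl -0.77) and at 5000 UMIs per droplet (Spp1 -0.95, Ctsl -0.80), where the classes stayed as picked at full depth. Since CPM are shares of one sum, a very abundant gene such as Spp1 takes part in the level of all others.

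S100a4, a calcium-binding protein of migrating cells (ENSMUSG00000001020, chromosome 3, 90511074-90513354, plus strand), was the gene with the largest fall. Members had 26.2, 11.95, 4.19 and 38.4 CPM in control and 15.9, 19.2, 41.4 and 30.1 CPM in ancrod mice, and the others 44.8, 76.6, 134 and 203 CPM and 122, 187, 127 and 92.5 CPM, without overlap (-2.46, SE 0.29). Of all genes tested, 85 (0.948%) were higher and 12 (0.134%) lower in members without overlap between the classes over the 8 mice. Of the 15 S100a genes in its cluster (chromosome 3, 90416091-93474510), a family chosen after its values were seen, 8 were tested, 4 were lower (S100a4, S100a8, S100a10 and S100a11) and none higher, with a median of -0.72, and in the strict class 6 of 7 were lower. Outside the lists, the other genes with the largest falls in all 8 mice were Mreg (-1.60), Lcmt2 (-1.19), Gm17268 (-1.12), Bst1 (-0.97), Tmem120b (-0.96), S100a10 (-0.95), Ppcs (-0.86), Il11ra1 (-0.77) and Nans (-0.75). Of these, Lcmt2 and Tmem120b were lost in 6 and Gm17268 and Ppcs in 7 of the 8 fits that left out 1 mouse.

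These genes were also followed by the number of the 5 rule genes found, as a description over all 1843 macrophages, for genes chosen after their values were seen. Pooled over mice and without further scaling, levels of Isg15 were 13.8, 21.4, 28.2, 46.6, 111 and 459 CPM from 0 to 5 genes found. Spp1 went the other way, at 55031, 48742, 46061, 33795, 28756 and 26013, and S100a4 fell from 150 through 93.2, 75.8, 29.6 and 20.2 to 15.9. These sums weight mice by their droplets. The median over mice of Spp1 was 57657, 45714, 54018, 26002, 29971 and 19778 CPM, so it did not fall at each step. The median of S100a4 was 152, 80.5, 65.6, 10.0, 6.16 and 0 CPM. In single mice S100a4 in droplets with 5 genes ran from 0 to 88.2 CPM, so the sums rest on few mice. Cx3cr1 went from 166 to 325 at 3 genes and to 246 at 5. Strict droplets gave the same order of the ends (Spp1 55419 to 26817, S100a4 137 to 19.0).

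**Figure D3:**
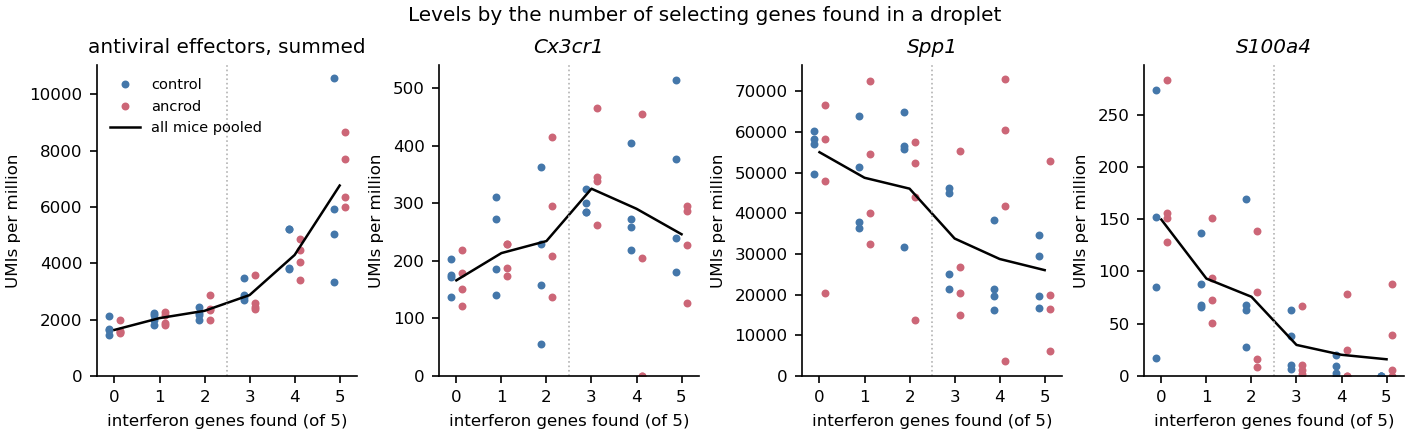
Level (UMIs per 1000000, linear axis) of the summed antiviral effector list, Cx3cr1, Spp1 and S100a4 in infiltrating macrophages grouped by how many of the 5 rule genes had a UMI (0 to 5); points are control (blue) and ancrod mice (red), the line is the sum over all mice, and the dotted line marks the threshold of 3 genes. The effector sum goes from 1632 to 6762 while Spp1 goes from 55031 to 26013, with wide scatter between mice at 4 and 5 genes.

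The remaining lists gave few calls between members and other macrophages. Complement had 2 of 8 higher, C3 and C4b, both lost after leaving out any 1 of 7 mice. Ligands directed at fibroblasts had 1 of 13 higher, Pdgfb, a growth factor for mural cells and fibroblasts (40.4 against 20.4 CPM). Of 7 fibrinogen receptors 1 was lower, Itgax, the integrin alpha X chain (18.3 against 36.1 CPM), and of 11 cytokines and checkpoint genes 1 was higher, Cd69, lost in 5 of the 8 fits that left out 1 mouse. Cell death (7 tested) and stress and dissociation genes (10 tested) gave none. Among markers of cell types, Fcgr1 was higher (193 against 118 CPM) and Lyz2 lower (21010 against 30458 CPM) of 7 macrophage genes, Hp was lower of 3 monocyte genes, Sparc higher of 5 microglial genes (though at -0.39 without droplets that hold other markers), Folr2 (lost in 6 of the 8 fits that left out 1 mouse) and F13a1 lower of 3 border macrophage genes, S100a8 lower of 2 neutrophil genes and Pecam1 higher of 4 endothelial genes, whose median was 2.23. None was called of 5 astrocyte genes (median -0.29) or of the single genes tested for dendritic cells, B cells, fibroblasts, mural cells and oligodendrocytes, and no T cell, natural killer cell or neuronal marker was tested. Pecam1 (38.3 against 7.37 CPM) was lost without control 3, ancrod 2 or ancrod 3, and in the strict class 1 endothelial gene was tested and not called. Without control 3 the number of called genes fell to 228, without ancrod 2 to 257 and without ancrod 3 to 263. Of 69 genes named here or picked by the same rule, 53 were called whichever mouse was left out, Irf7, Isg15, Spp1, Ctsl and S100a4 among them.

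Interferon ligands themselves were not found. All 11 listed type I, II and III ligands had 0 UMIs in the 193 members. Taken as 3 divided by 193 and not as a Clopper-Pearson interval, this allows a share of cells with a UMI of up to 1.55%, for counting error only. Ifnb1 had no UMI in 1650 other infiltrating macrophages either, and was found in 59 of 2688 interferon-responsive microglia (2.19%) and 61 of 14343 other microglia (0.425%). Endothelial droplets had it in 0.0992%, and barcodes with at most 100 UMIs held it at 1.57 CPM, above the 0.921 CPM of other microglia and below the 8.24 CPM of interferon-responsive microglia. The share in other microglia is therefore not read as expression. Droplet depth was lower in both microglial classes (medians 17284.5 and 13042 UMIs) than in members (29023).

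The next comparison asked in which genes the interferon-associated difference was unlike in macrophages and microglia, by the interaction of class and cell type with mouse as a block. Both classes were picked by the same 5 genes, at unequal depth, so the selection can reach unequally far into each. Of 2688 interferon-responsive microglia 840 held all 5 genes and 1067 only 3, against 48 and 102 of the 193 members. A larger difference in an interferon gene and a stronger selection cannot be told apart here. The calls below therefore describe the classes as picked, and no p is given for a single gene. Of 11709 genes, 282 differed with the larger value in macrophages (2.41%) and 304 with the larger in microglia (2.6%), 5% in all by edgeR, and the strict classes gave 211 of 10782 (1.96%, with 0.816% larger in macrophages and 1.14% in microglia), 170 of them shared. Levels below come from this joint scaling and so differ slightly from those above. Where genes of the interferon lists were called, most differed more in microglia. Effectors gave 0 of 36 larger in macrophages and 7 larger in microglia (median -0.25, beside 0.04 over all genes), sensors 0 and 4 of 15, class I genes 0 and 5 of 13 and transcription factors none of 9 (receptors none of 8, the Isg15 pathway 0 and 1 of 4). The guanylate-binding and GTPase list gave 1 of 13 larger in macrophages, Gbp7 (0.99), and 2 in microglia, and of 6 negative regulators 1 was larger in macrophages, Pias1 (0.43), a call that held whichever mouse was left out. At 5000 UMIs per droplet, with the classes still picked at full depth and fewer UMIs in the sums, Ifi47, Slfn5, Samhd1 and Psmb8 were still called, while Zbp1, Dhx58, Oas1a, Trim25, Phf11b, Ube2l6, Iigp1, Gbp7, Pias1, H2-T22, H2-T23 and Psmb9 were not, and Ifi205 was not tested. Several of these values stayed about as large without being called (Oas1a -0.95, Trim25 -0.65, Psmb9 -0.51, Iigp1 -2.80, Gbp7 0.85 and Pias1 0.55), while Dhx58 (-0.14) and Ube2l6 (-0.38) came closer to 0. Of the 8 fits that left out 1 mouse, Iigp1 was lost in 7, Dhx58, Phf11b, Psmb9 and Gbp7 in 5 each, H2-T22 and H2-T23 in 4, Zbp1 and Oas1a in 3, and Trim25 and Psmb8 in 2.

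Ifi47, an immunity-related GTPase, was at 36.8 CPM in members and 8.46 in other macrophages, and at 19.3 CPM in interferon-responsive and 0.771 in other microglia (difference of log2 differences -2.48, SE 0.25, microglia larger in 8 of 8 mice). Slfn5, a Schlafen protein of antiviral defence, was at 225 and 71.1 CPM against 306 and 42.6 CPM (-1.20, SE 0.20, 8 of 8 mice). Samhd1, which depletes the nucleotides that viruses need, was at 121 and 71.4 CPM against 115 and 40.3 CPM (-0.79, 8 of 8 mice). For all 3 genes the level in the non-responsive cells was lower in microglia than in macrophages.

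Ccl2 went in opposite directions. It was at 103 CPM in members against 188 in other macrophages, and at 272 CPM in interferon-responsive against 170 in other microglia (-1.54, SE 0.28, 8 of 8 mice). Cx3cr1 was at 313 against 218 CPM in macrophages and at 1360 against 1484 CPM in microglia (0.65, SE 0.14, 8 of 8 mice). Ctsl was at 1348 against 2501 CPM in macrophages and at 2170 against 2272 CPM in microglia (-0.83, 8 of 8 mice), and Plin2 at 1561 against 2133 CPM and 314 against 287 CPM (-0.58, 8 of 8 mice). Thinning the counts to 5000 UMIs does not even out the picking of the classes, which stayed as made at full depth. It left 110 genes called, among them Ifi47 (-2.17), Slfn5 (-1.20), Samhd1 (-1.06), Ccl2 (-1.98), Ctsl (-0.89), Plin2 (-0.81) and Cx3cr1 (0.58). Of 40 genes named by the rule, 17 were called whichever mouse was left out, these 7 among them, and the number of all calls was 173 without control 3, 291 without control 2 and 339 without ancrod 3. Genes with the larger value in macrophages outside the lists (Ncam2, Tmem204, Nid2, Tmc7 and Rhobtb1) were not called in the strict class. Il12b had no UMI in members and 2.81 CPM in the other macrophages, and 36.9 and 14.5 CPM in the microglial classes.

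**Figure D4:**
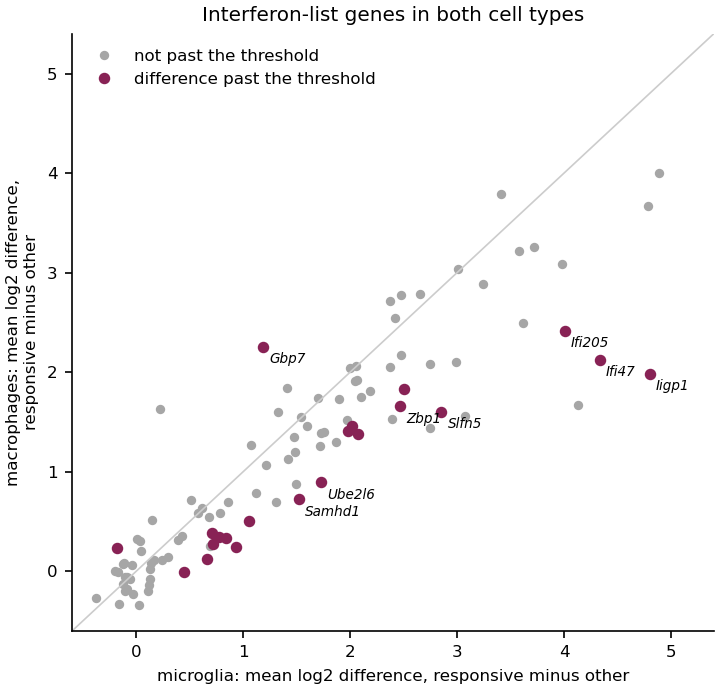
Mean log2 difference over 8 mice between interferon-responsive and other cells, in microglia (horizontal) and in macrophages (vertical), for each tested gene of the receptor, regulator, transcription factor, sensor, effector, Isg15, guanylate-binding and class I lists; the diagonal marks equal differences and purple points passed the edgeR threshold for the interaction. Most purple points, among them Ifi47, Slfn5 and Samhd1, lie below the diagonal, and Gbp7 and the unlabelled Pias1 lie above it.

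The last comparison asked whether members of ancrod mice differed from members of control mice. By edgeR none of 7095 genes tested was called (0% in all), 378 had an unadjusted p under 0.05, and 222 (3.13%) did not overlap between the groups. DESeq2 called 9 genes, all higher in ancrod mice among them the astrocyte genes Gpr37l1 and Slc1a2. The summed level of 5 astrocyte markers over members was 0.109 to 1.43 cp10k in control and 0.731 to 38.8 cp10k in ancrod mice, and the part of such droplets in these calls was not tested. The strict class of macrophages, which leaves out such droplets, gave 1 call of 5762 (0.0174%), Cd5l (log2 difference -3.47), which encodes a secreted protein of macrophages.

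Of the rule genes, whose UMIs chose the members in both groups, levels are given as a description. They were among the 7095 genes fitted, and no p is given for them. Here the members were scaled alone, so levels differ slightly from those given above. Ifit3 was at 126 ± 64.0 CPM in control and 190 ± 21.5 in ancrod members (SD, n = 4), Rsad2 at 148 ± 62.3 and 237 ± 119 and Ifit2 at 103 ± 48.8 and 160 ± 70.2. The groups overlapped for each of these 3. Interferon genes outside the rule were among those without a call. Isg15 was at 162 ± 78.5 and 166 ± 39.7 CPM (0.04, SE 0.33) and Spp1 at 32152 and 30047 CPM (-0.10). Each mouse gave 18 to 37 droplets to these sums, which limits their precision. Median log2 differences were 0.19 over 32 effectors, 0.26 over 13 sensors, 0.44 over 7 guanylate-binding and GTPase genes and -0.60 over 6 class II genes, beside -0.01 over all genes, with 0 called in each. Tlr3 (1.23), Ifit1 (0.95), Rigi (0.77) and Ccl8 (-2.84), picked after their values were seen, were not called.

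**Figure D5:**
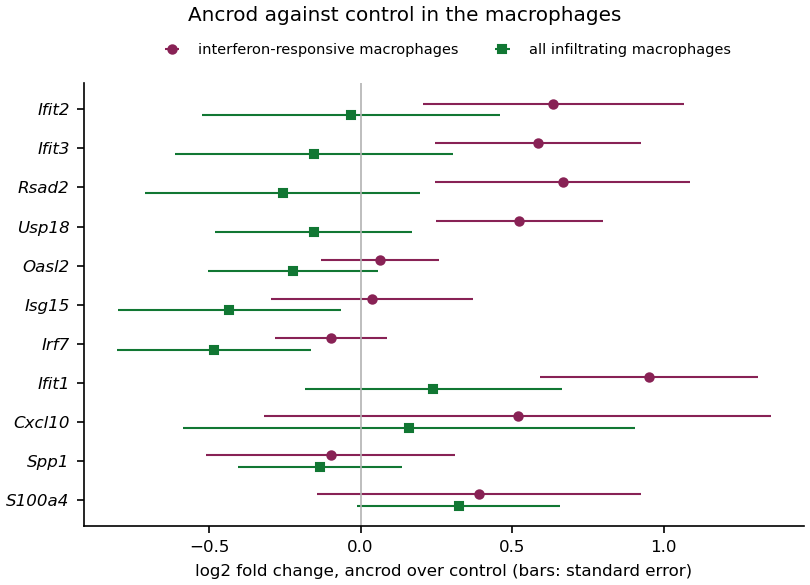
Log2 fold change, ancrod over control, of the 5 rule genes and 6 others within interferon-responsive macrophages (purple circles) and over all infiltrating macrophages (green squares); bars are standard errors of the edgeR fits with 4 mice a group. Ifit2, Ifit3, Rsad2 and Usp18 lie above 0 in the members and below 0 over all macrophages. For the 5 rule genes, which chose the members, points and bars are a description and no test is read from them. None of the 6 others was called.

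Over all 1843 non-dividing infiltrating macrophages together, none of 10826 genes was called by edgeR (0%), with 540 at an unadjusted p under 0.05, and DESeq2 called 13. The groups did not overlap for 249 genes (2.3%). The 5 rule genes lay between -0.26 and -0.03 (median -0.15), the effectors at a median of -0.10 and all genes at 0.00. Fewer responsive cells and less interferon RNA per cell cannot be told apart in such sums.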

How the data were processed

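Raw gene by barcode matrices of 8 single-cell libraries (10x 3′ v3.1) were used as deposited: the authors made these UMI counts with Cell Ranger 7.1.0 and STAR on mm39 (GRCm39), exonic and intronic reads included, without normalization. Such counts favour the 3′ end of transcripts, so levels were not compared between genes. Droplets with at least 2000 UMIs and under 20% mitochondrial UMIs were kept, and members were found by the thresholds given above. Counts were summed per mouse and class (minimum 5 droplets) and tested with edgeR 4.0.16 (quasi-likelihood, trimmed mean of M values, filterByExpr, limma 3.58.1, R 4.3.3), with Benjamini-Hochberg adjustment over all genes tested at 0.05. Mouse was a block for comparisons of classes within mice and treatment the sole term for ancrod against control. Genes of the rule were left out of the tests between classes. Shares were compared by exact permutation (70 arrangements of 4 against 4 mice, or 256 sign flips), with Clopper-Pearson intervals, in Python 3.11.15 with scipy 1.17.1. The scripts were tested on simulated data with the depth of these sums. Between ancrod and control members they called 38.9% of 90 genes with a true log2 change of 1 and 99.0% of 96 with a change of 2. Genes without a call there can thus still differ by a log2 change of 1.

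Members and the 36 gene lists (328 genes) were chosen with earlier results of these data known. From each list, up to 4 called genes with the largest absolute log2 fold change were eligible to be named, and outside the lists 10 on each side with the same direction in every mouse (5 on each side for the interaction); genes named otherwise are said to be chosen after their values were seen. Alternatives were DESeq2 1.42.0, no filter on low counts, thinning to 5000 UMIs, other UMI, mitochondrial and gene number limits, removal of droplets with other markers, batch 1 alone, the replicate block, and each mouse left out. The strict class and batch 2 alone were added after seeing the data.
Some genes that the rules would name are not reported here.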

Additional observations from a re-analysis of the deposited data

Results flagged for a closer look

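Ctsl in members of the control mice was flagged because 1 mouse stood apart: control 2 had 2093 CPM and the other 3 had 1287, 1255 and 1379 CPM. Of 56 groups of mice looked at this way 1 was flagged, and chance flags about 1 in 20. Ctsl was called lower in members whichever mouse was left out.

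The genes with the largest differences of log2 differences between macrophages and microglia were flagged because the interaction was called by edgeR. With the larger value in macrophages these were Ncam2 (3.26), Tmem204 (2.71), Nid2 (2.70), Tmc7 (2.61) and Rhobtb1 (2.51), and none of them was called in the strict class, where Tmc7 turned to -3.16. With the larger value in microglia they were Ly75 (-3.60), which was not tested in the strict class, and Mmp25 (-3.44), which turned to 0.42 there and was not called, and Ccr7 (-11.47), Il12b (-9.40) and Gxylt2 (-6.09), for which members had 0 UMIs, so that the fitted value depends on the prior count and is no fold. Ccr7, the receptor that guides dendritic cells to lymph nodes, stood at 0 CPM in members and 14.9 in the other macrophages, and at 2.38 and 0.891 CPM in the microglial classes. Its UMIs in the other macrophages came from 17 of 1650 droplets, and droplets were not left out for dendritic cell markers.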

How the results depend on the processing

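Depth limits the thinned shares, since each mouse had 2 to 7 members at 5000 UMIs. For those shares members were picked again after thinning, while the thinned gene fits kept the classes picked at full depth. The difference in share of macrophages kept its sign in every alternative and was -14.4 points in batch 2 alone (1 mouse each). The difference in share of all droplets, 0.0202 points, rose to 0.201 with 2 of 5 genes required and to 0.121 without droplets with other markers. It turned to -0.0134 with 4 of 5 genes required, -0.00413 in the strict class, -0.202 in batch 2 alone, and ran from -0.0461 to 0.0765 when 1 mouse was left out. Replicate numbers did not pair the mice (correlations of same-numbered mice within members -0.064, -0.167, 0.060 and 0.260). With them as a replicate block, the exact permutation p of the shares was 0.375 and 0.875 (n = 4 pairs), and edgeR called 3 genes between ancrod and control members and 1 over all macrophages. Between ancrod and control members, DESeq2 called 9 genes, the unfiltered fit 2, the thinned fit 2 and the strict class 1, and leaving out 1 mouse gave 0 to 2. Over all infiltrating macrophages DESeq2 called 13 and the thinned fit 1, and leaving out 1 mouse gave 0 to 3. Between members and other macrophages, 501 became 115 when thinned, 286 without droplets with other markers, 318 in the strict class, 265 with 4 of 5 genes required, 421 with no replicate block, and 228 to 447 with 1 mouse left out. The macrophage and microglia interaction gave 908 genes with DESeq2, 110 thinned, 211 in the strict class and 173 to 531 with 1 mouse left out. Without droplets with other markers Sparc turned to -0.39 between macrophages and to -0.10 in the interaction, and Tmc7 to -2.73. In the strict class Tmc7 was at -3.16 and Mmp25 at 0.42. The causes of these changes were not tested.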
